A study of Jaculus jaculus and Mus musculus with 24 samples.

Results

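The immediate early genes described here are 10 genes: the AP-1 family members Fos, Fosb, Jun, Junb and Atf3, the zinc finger factors Egr1, Klf4 and Klf6, the nuclear protein gene Ier2 and the phosphatase gene Dusp1. They were taken by name, as the rows whose mouse transcript identifier pairs with these symbols. The list of names was drawn up with earlier results of these data known. Each of the 10 had 1 row among the 17641 rows of the count tables, and 10 of 10 were among the 14448 genes that passed the filter on low counts. RNA of muscle inside the hindfoot and of the forelimb flexor digitorum superficialis (FDS) was sequenced in 2 rodents: Jaculus jaculus, the lesser Egyptian jerboa, which hops on 2 legs and loses its hindfoot muscle after birth, and Mus musculus, the laboratory mouse, which keeps it. Each tissue was taken at P0 (birth) and at P3 (postnatal day 3), so that 24 libraries fell into 8 groups with 3 libraries each. The labels give the treatment of every sample as normal and name no strain, sex or genotype. Foot muscle was taken from sections and FDS muscle by dissection, in both species. Limb and way of sampling therefore cannot be told apart in any comparison of foot and forelimb. The labels describe the reads of the P0 samples as trimmed and those of the P3 samples as raw, so age and read handling cannot be told apart either. Nothing in the labels ties a library to an animal, so p-values measure only the spread between the libraries sequenced, which may be technical.

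Immediate early genes are transcribed within minutes of a stimulus, such as a growth factor, stretch, injury or handling of tissue, without the need for new protein. Kinase cascades ending on serum response factor, its ELK partners and CREB switch them on, and their RNAs are short-lived. In muscle they are known to respond to contraction, damage and the activation of muscle stem cells, and also to the dissociation of tissue before measurement.

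Most of the 10 genes are compact in the mouse annotation (GENCODE M21, GRCm38). Protein-coding transcripts had a median of 8 exons and a median span of 19666 bases, and 10 of 10 of these genes had fewer exons and 9 of 10 a shorter span. The spliced transcripts were not short, since 5 of 10 exceeded the median of 2772 bases. Jun, Junb and Ier2 have 1 exon and no intron. Atf3, with a span of 47744 bases, was the exception in length. The pentamer ATTTA, the core of the AU-rich elements known from short-lived messages, was searched on the transcript strand of each 3′ UTR. It was present in 9 of 10, Ier2 being without it, against 63.4% of 17028 protein-coding transcripts with a 3′ UTR. The longer motif TTATTTATT, which contains the pentamer, was present in Fos and Dusp1, against 6.85% of those transcripts. In windows of equal size, the last 300 bases of the UTR, ATTTA was found in 7 of 10 and TTATTTATT in 2 of 10, against 44.7% and 2.28% of the 13176 transcripts with a UTR that long. These shares are descriptions, and a match is not evidence of a working site. The mouse sites of 4 genes with the contrast in limb or spread described below are shown here as 30 bases around a match, 5′ to 3′ on the transcript strand, with each ATTTA in capitals. All lie in the 3′ UTR of the last exon: Fos at chr12:85477102-85477131 (plus strand), Dusp1 at chr17:26506159-26506188 (minus strand), Jun at chr4:95049204-95049233 (minus strand) and Junb at chr8:84977127-84977156 (minus strand). Jerboa sequence was not used here.
Fos: gtgttttcaATTTATTTAttaagatggatt
Dusp1: ggagctggtccttATTTATTTAacaccccc
Jun: ATTTAtaatcataggaaagATTTAgtaatt
Junb: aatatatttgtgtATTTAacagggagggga

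The Fos and Dusp1 sites each hold 2 overlapping pentamers, the Jun site holds 2 that do not overlap, and the Junb site holds 1. Per kilobase of UTR, Dusp1 had 5.80 pentamers and Fos 4.91, at the 94.9th and 92.5th percentile of all transcripts with a UTR, whereas the median was 1.14. Klf4 was at 1.018 and Fosb at 0.466 pentamers per kilobase, below that median.

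The libraries held 16.7 M to 54.7 M reads. Levels are given as CPM, the count scaled to a library of 1 M reads, on normalised library sizes, differences as log2 fold changes ± SE of foot over forelimb or of P3 over P0, and a gene is called where its adjusted p is under 0.05 (edgeR quasi-likelihood test, Benjamini-Hochberg over all tested genes). The labelled tissue was checked against its markers. All 10 muscle fibre markers were detected in every group, and their summed level was 34352 to 52390 CPM in the foot libraries and 67417 to 98025 CPM in the forelimb libraries. The 5 tendon markers were higher in foot in 4 of 4 comparisons (5 of 5 each time), and the 8 endothelial markers were lower in foot (8 of 8 in jerboa at both ages and in mouse at P3, 7 of 8 in mouse at P0). Summed tendon levels were 4767 to 8332 CPM in jerboa foot against 2052 to 3078 CPM in jerboa forelimb, and 1668 to 2827 CPM in mouse foot against 1047 to 1655 CPM in mouse forelimb. Summed endothelial levels were 184 to 242 CPM in jerboa foot against 720 to 1169 CPM in jerboa forelimb, and 498 to 576 CPM in mouse foot against 872 to 1192 CPM in mouse forelimb. Summed macrophage markers ran from 152 to 279 CPM in the feet of jerboa against 395 to 466 CPM in its forelimb. In mouse these sums overlapped, at 262 to 347 CPM in foot and 302 to 385 CPM in forelimb. Neutrophil markers, with Elane at 0 reads in 5 of the 8 groups, summed to at most 19.0 CPM in any library. The 6 cartilage markers summed to 727 to 1096 CPM in jerboa foot against 297 to 379 CPM in jerboa forelimb. In mouse they summed to 162 to 299 CPM in foot against 68.9 to 117 CPM in forelimb. Of 6 fibro-adipogenic markers, 6 at P0 and 5 at P3 were lower in mouse foot. In jerboa foot 2 were lower and 1 higher at P0, and 4 lower and 1 higher at P3. Over all tested genes, 27.2% to 35.9% were higher and 25.2% to 34.8% lower in foot in the 4 comparisons. The part of this tissue makeup in the differences below was not tested. In bulk RNA, fewer cells of a type and less RNA per cell cannot be told apart.

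**Figure D1:**
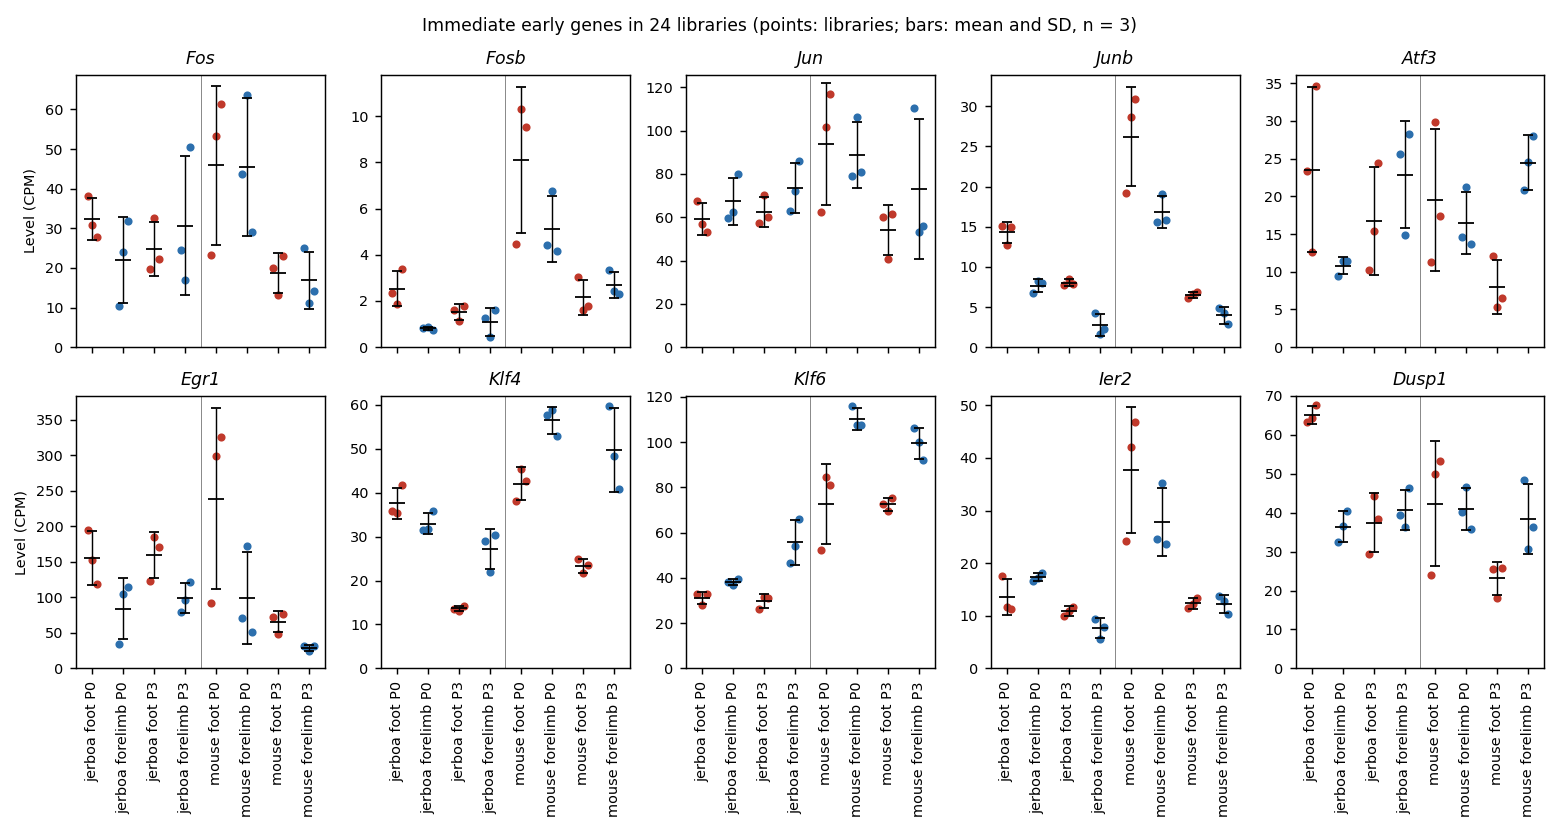
Level of each of the 10 genes in CPM (vertical axes start at 0 and differ between panels) in the 8 groups, with foot in red and forelimb in blue, jerboa left and mouse right of the grey line. Points are libraries and bars the mean and SD (n = 3); Junb is higher in foot than in forelimb at both ages in both species, and the 3 mouse foot libraries at P0 lie far apart for Egr1, from 92.6 to 325.5 CPM.

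Per kilobase of mouse transcript, the order of the genes differed between mouse groups. In mouse foot at P0, Egr1 stood at 53.3 CPM per kb, followed by Jun at 29.4, Ier2 at 24.8, Fos at 21.8, Dusp1 at 21.3, Klf6 at 17.2, Junb at 14.5, Klf4 at 13.9, Atf3 at 10.3 and Fosb at 2.14 CPM per kb. In mouse forelimb at P3, Klf6 stood at 23.5, Jun at 22.9 and Dusp1 at 19.3 CPM per kb, with Fos at 7.99, Egr1 at 6.54, Junb at 2.21 and Fosb at 0.712 CPM per kb. Fosb had the lowest level per length in both. Lengths of jerboa transcripts were not used, so jerboa genes were not ranked.

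Foot and forelimb did not differ in one direction over the 10 genes. In jerboa at P0, 4 of 10 were higher in foot (Fosb, Junb, Atf3 and Dusp1), none was lower and 6 were not called, where 65.8% of all tested genes were called, 31.1% higher and 34.8% lower. In mouse at P0, 2 were higher (Junb and Egr1) and 2 lower (Klf4 and Klf6), where 59.0% of tested genes were called, 29.7% higher and 29.3% lower. In jerboa at P3, 1 was higher (Junb) and 2 were lower (Klf4 and Klf6), against 67.9% of tested genes called, 35.9% higher and 32.0% lower. In mouse at P3, 1 was higher (Junb) and 4 were lower (Atf3, Klf4, Klf6 and Dusp1), against 52.4% called, 27.2% higher and 25.2% lower. The median log2 difference over the 10 genes was 0.69 in jerboa at P0, 0.17 in mouse at P0, -0.18 in jerboa at P3 and -0.39 in mouse at P3, while the median over all tested genes lay between -0.01 and 0.04. With 3 to 5 of 10 called in each comparison, the share called among these genes was below that among all tested genes. In mouse at P3, with 5 of 10 against 52.4%, the 2 shares were nearly equal. Most of the 10 genes also spread more between libraries than a typical gene, as given below. The part of this spread in the counts called was not tested. Genes whose 3 foot libraries did not overlap the 3 forelimb libraries numbered 6 of 10 in jerboa at P0 (66.3% of all tested genes), 3 in mouse at P0 (61.3%), 5 in jerboa at P3 (70.9%) and 6 in mouse at P3 (67.9%).

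**Figure D2:**
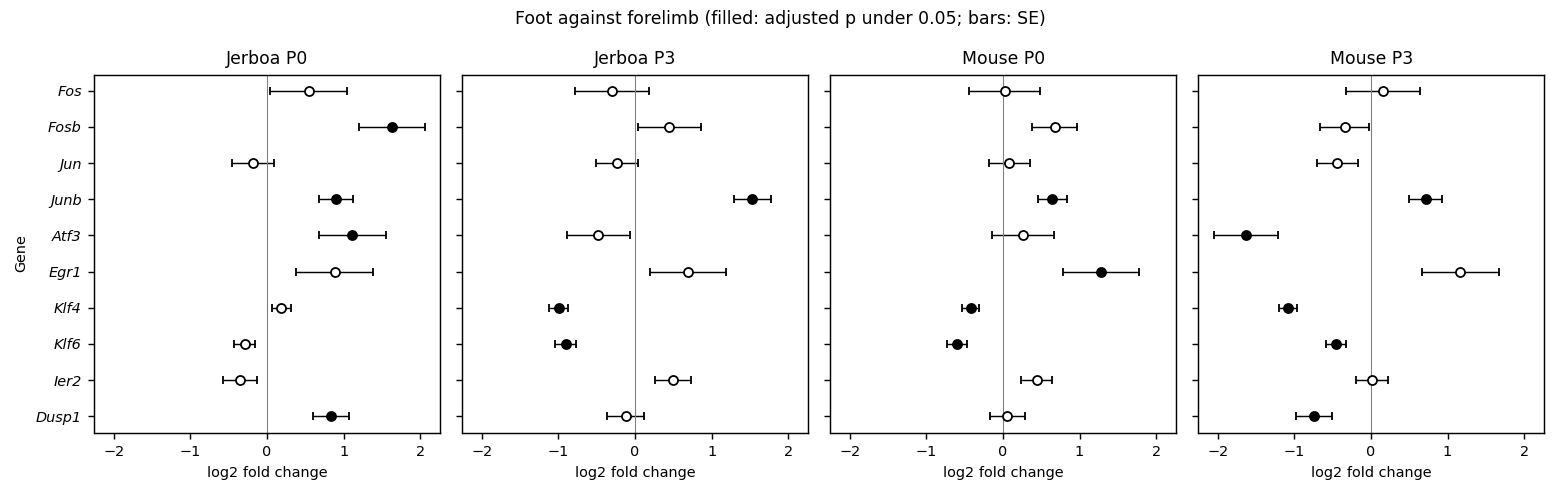
Log2 fold change of foot over forelimb (horizontal axis; bars are SE) for each gene in the 4 comparisons, with filled points for an adjusted p under 0.05. Junb lies right of 0 and is filled in all 4 panels, and Klf4 and Klf6 lie left of 0 and are filled in 3 of the 4.

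Junb, an AP-1 subunit that is known to favour muscle growth and restrain atrophy, was higher in foot in all 4 comparisons. It lies at chr8:84976910-84978718 (GRCm38, minus strand) and is listed as ENSMUST00000064922. In jerboa at P0 the foot libraries stood at 15.05, 12.8 and 15.02 CPM, and the forelimb libraries at 6.71, 8.21 and 8.01 CPM. At P3 the jerboa foot stood at 7.70, 8.49 and 7.92 CPM and the forelimb at 4.30, 1.70 and 2.25 CPM. The limbs did not overlap at either age, with log2 differences of 0.90 ± 0.22 at P0 (edgeR adjusted p = 0.00086) and 1.53 ± 0.24 at P3 (edgeR adjusted p = 6.5e-06). Mouse foot at P0 was at 19.2, 28.6 and 30.8 CPM and mouse forelimb at 15.5, 19.1 and 15.9 CPM, a difference of 0.64 ± 0.19 (edgeR adjusted p = 0.0062). By P3 the mouse levels were 6.11, 6.63 and 6.87 CPM in foot and 4.88, 4.28 and 2.84 CPM in forelimb, a difference of 0.72 ± 0.22 (edgeR adjusted p = 0.0075). Every foot library exceeded every forelimb library of its species and age, by a narrow margin in mouse at P0. Without the third mouse forelimb library at P3, the one at 2.84 CPM, the mouse difference at P3 was 0.51 and was no longer called (edgeR adjusted p = 0.060). The order of the group means in mouse was foot at P0 (26.2 ± 6.17 CPM), forelimb at P0 (16.8 ± 1.96), foot at P3 (6.54 ± 0.389) and forelimb at P3 (3.998 ± 1.05 CPM, SD, n = 3), with no overlap between neighbours. In jerboa the order was foot at P0 (14.3 ± 1.30 CPM), foot at P3 (8.03 ± 0.408), forelimb at P0 (7.64 ± 0.819) and forelimb at P3 (2.75 ± 1.37 CPM, SD, n = 3), where the second and the third overlapped.

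Fosb, the FOS paralogue, was higher in jerboa foot at P0 and was not called in the other 3 limb comparisons. The jerboa libraries at P0 were at 2.35, 1.87 and 3.39 CPM in foot against 0.843, 0.855 and 0.745 CPM in forelimb. These levels rest on few reads, 41, 33 and 53 in foot and 23, 23 and 25 in forelimb. The 2 sets did not overlap, and foot was higher by 1.63 ± 0.43 on the log2 scale (edgeR adjusted p = 0.0019), the largest difference of the 10 genes in that comparison. In mouse at P0 the level was 4.48, 10.3 and 9.53 CPM in foot and 4.44, 6.78 and 4.16 CPM in forelimb, with a log2 difference of 0.67 ± 0.29 that was not called (edgeR adjusted p = 0.053). P3 libraries held 1.15 to 1.79 CPM in jerboa foot, 0.441 to 1.61 in jerboa forelimb, 1.62 to 3.04 in mouse foot and 2.30 to 3.33 CPM in mouse forelimb. The limbs overlapped at P3 in both species.

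Fos, which pairs with JUN proteins in AP-1 and is the classical marker of recent stimulation, was not called between the limbs in any of the 4 comparisons. Its libraries spread widely within groups. Jerboa foot at P0 stood at 38.2, 30.8 and 27.9 CPM, whereas jerboa forelimb at P0 stood at 10.3, 24.1 and 31.8 CPM. Mouse foot at P0 stood at 23.2, 53.2 and 61.3 CPM and mouse forelimb at 43.7, 63.6 and 29.1 CPM. The limbs overlapped in both species, with log2 differences of 0.54 ± 0.50 in jerboa (edgeR adjusted p = 0.36) and 0.02 ± 0.46 in mouse (edgeR adjusted p = 0.98). At P3, Fos in jerboa was at 19.7, 32.5 and 22.3 CPM in foot against 24.4, 17.1 and 50.6 CPM in forelimb. In mouse at P3 it was at 19.99, 13.3 and 23.1 CPM in foot against 25.1, 11.3 and 14.2 CPM in forelimb. Foot and forelimb overlapped again. The SEs of the Fos differences were 0.46 to 0.50 on the log2 scale. A difference has to be well above its SE to be called, and the 0.54 in jerboa at P0 was not. The absence of a call therefore does not show that the limbs were alike in Fos.

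Jun, the main partner of FOS in AP-1, was not called between the limbs in any comparison. At P0 it ranged from 53.2 to 67.5 CPM in foot and from 59.7 to 79.9 CPM in forelimb of jerboa, and stood at 62.5, 101.7 and 117 CPM in mouse foot against 78.9, 106.2 and 80.8 CPM in mouse forelimb. At P3 jerboa ranged from 57.3 to 85.8 CPM over both limbs, and mouse was at 60.1, 40.7 and 61.4 CPM in foot and 110.5, 53.1 and 55.9 CPM in forelimb. Log2 differences ran from -0.44 to 0.08 with SEs of 0.27 to 0.28.

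Atf3, an AP-1 and CREB family factor induced by cell stress, differed in opposite directions in the comparisons in which it was called. At P0 jerboa foot was at 23.3, 12.7 and 34.6 CPM and jerboa forelimb at 9.49, 11.5 and 11.5 CPM, with foot higher by 1.11 ± 0.43 (edgeR adjusted p = 0.031). The limbs did not overlap, but the gap rested on libraries that differed 2.74-fold within jerboa foot. At P3 mouse foot was at 12.1, 5.38 and 6.53 CPM and mouse forelimb at 20.8, 24.6 and 28.0 CPM, a log2 difference of -1.63 ± 0.42 (edgeR adjusted p = 0.0032). Here too the limbs did not overlap. In mouse at P0 (11.3, 29.9 and 17.5 CPM in foot, 14.6, 21.2 and 13.7 CPM in forelimb) and in jerboa at P3 (10.2, 15.5 and 24.4 CPM in foot, 25.6, 14.9 and 28.2 CPM in forelimb) they overlapped and Atf3 was not called. The jerboa call at P0 was lost without any 1 of 5 of its 6 libraries, with edgeR adjusted p from 0.058 to 0.18, and the difference fell to 0.73 without the third foot library; it was also lost with limma voom (adjusted p = 0.074).

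Egr1, a zinc finger factor downstream of ERK signalling and serum response factor, had higher group means in foot in all 4 comparisons and was called in mouse at P0. Mouse foot at P0 was at 92.6, 299 and 325.5 CPM and mouse forelimb at 71.4, 172 and 51.9 CPM, a log2 difference of 1.28 ± 0.49 (edgeR adjusted p = 0.034). The first foot library lay inside the forelimb range. Mouse foot at P3 was at 71.8, 49.1 and 77.2 CPM and mouse forelimb at 31.2, 24.6 and 32.2 CPM. These did not overlap, and the log2 difference of 1.17 ± 0.51 was not called (edgeR adjusted p = 0.063). In jerboa the libraries stood at 195, 152 and 119 CPM in foot and 34.5, 104.5 and 114 CPM in forelimb at P0, and at 123, 184 and 171 CPM in foot and 78.7, 96.6 and 121.6 CPM in forelimb at P3. Foot and forelimb did not overlap in jerboa at either age, with log2 differences of 0.88 ± 0.50 and 0.69 ± 0.49 that were not called (edgeR adjusted p = 0.13 and 0.23). The call in mouse at P0 was lost without the second or the third foot library or the first or the third forelimb library (differences of 0.97 to 1.09, edgeR adjusted p from 0.11 to 0.14), and with only the libraries compared (edgeR adjusted p = 0.13).

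Klf4, a Krüppel-like factor known from stem cells, endothelium and smooth muscle, was lower in foot in 3 of the 4 comparisons. Jerboa at P3 held 13.6, 13.2 and 14.1 CPM in foot and 29.1, 22.0 and 30.4 CPM in forelimb, a log2 difference of -0.99 ± 0.13 (edgeR adjusted p = 1.4e-07). Mouse at P3 held 25.0, 21.8 and 23.5 CPM in foot and 59.8, 48.4 and 40.8 CPM in forelimb, a log2 difference of -1.08 ± 0.12 (edgeR adjusted p = 2.3e-08). Neither pair overlapped, with the nearest libraries at 14.1 and 22.0 CPM in jerboa and at 25.0 and 40.8 CPM in mouse. At P0 mouse foot was at 38.1, 45.5 and 42.6 CPM and mouse forelimb at 57.7, 58.8 and 53.0 CPM (-0.42 ± 0.11, edgeR adjusted p = 0.0024). Jerboa at P0 was at 35.8, 35.4 and 41.7 CPM in foot and 31.5, 31.7 and 35.7 CPM in forelimb, which overlapped and were not called.

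Klf6, a related factor induced by injury, was lower in foot in the same 3 comparisons. Mouse foot at P0 was at 52.2, 84.4 and 80.8 CPM and mouse forelimb at 116, 107 and 107 CPM (-0.60 ± 0.13, edgeR adjusted p = 0.00031). At P3 the mouse levels were 72.5, 69.6 and 75.3 CPM in foot and 106, 100.005 and 92.1 CPM in forelimb (-0.46 ± 0.13, edgeR adjusted p = 0.0043). No mouse foot library reached a forelimb library at either age. Jerboa at P3 was at 26.3, 31.6 and 31.2 CPM in foot and 46.7, 54.1 and 66.2 CPM in forelimb, without overlap (-0.91 ± 0.14, edgeR adjusted p = 3.1e-06). In jerboa at P0 foot (32.7, 28.1 and 32.9 CPM) lay below forelimb (38.3, 36.7 and 39.6 CPM) in every library, with a log2 difference of -0.29 ± 0.14 that was not called (edgeR adjusted p = 0.070). In the same libraries the summed endothelial and muscle fibre markers were lower in foot and the summed tendon markers higher, by the values given above. The part of these lists in the values of Klf6 or of the other genes was not tested.

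Dusp1, which dephosphorylates p38, JNK and ERK kinases, was higher in jerboa foot at P0 and lower in mouse foot at P3. Jerboa at P0 was at 63.4, 64.3 and 67.6 CPM in foot and 32.5, 36.5 and 40.3 CPM in forelimb, a log2 difference of 0.84 ± 0.24 (edgeR adjusted p = 0.0049). The foot libraries were close together and well above the forelimb libraries. Mouse at P3 was at 25.4, 18.1 and 25.7 CPM in foot and 48.3, 30.6 and 36.2 CPM in forelimb, also without overlap (-0.74 ± 0.24, edgeR adjusted p = 0.014). Without the second mouse foot library or the first mouse forelimb library at P3 it was -0.58 and -0.54 and was not called (edgeR adjusted p = 0.072 and 0.081). The limbs overlapped in mouse at P0 (23.96, 49.8 and 53.2 CPM in foot, 40.3, 46.5 and 35.7 CPM in forelimb) and in jerboa at P3 (29.4 to 44.3 CPM in foot, 36.3 to 46.3 CPM in forelimb).

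Ier2, a nuclear protein gene of the immediate early class, was not called between the limbs in any comparison. In mouse it was at 24.2, 42.1 and 46.8 CPM in foot and 24.7, 35.3 and 23.6 CPM in forelimb at P0. In jerboa at P0 it was at 17.6, 11.8 and 11.3 CPM in foot and 16.6, 17.2 and 18.1 CPM in forelimb. Both pairs overlapped, and the signs of the log2 difference were opposite, 0.44 ± 0.20 in mouse (edgeR adjusted p = 0.065) and -0.35 ± 0.23 in jerboa (edgeR adjusted p = 0.18). At P3 jerboa foot (9.95, 10.9 and 11.8 CPM) lay above jerboa forelimb (9.46, 5.60 and 7.83 CPM), a difference of 0.50 ± 0.23 that was not called (edgeR adjusted p = 0.064), and mouse overlapped at 10.3 to 13.7 CPM over both limbs.

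The test of whether the foot-forelimb difference itself differed between the species, as jerboa minus mouse, called 2 of 10 genes at each age, where 48.5% of tested genes were called at P0 (21.6% higher and 26.9% lower) and 48.9% at P3 (24.1% higher and 24.9% lower). At P0 these were Klf4 (0.61 ± 0.17, edgeR adjusted p = 0.0034), lower in foot in mouse and not called in jerboa, and Ier2 (-0.80 ± 0.30, edgeR adjusted p = 0.035). At P3 they were Junb (0.81 ± 0.33, edgeR adjusted p = 0.043), with the larger excess of foot in jerboa, and Klf6 (-0.45 ± 0.18, edgeR adjusted p = 0.048), with the larger deficit of foot in jerboa. The Klf4 call was kept under all alternatives run, with differences from 0.53 to 0.67. Leaving out 1 library ended the Ier2 call for 8 of the 12 libraries compared, the Junb call for 10 and the Klf6 call for 9, with edgeR adjusted p up to 0.11, 0.14 and 0.16. With only the libraries compared, the Ier2 and Junb calls were lost (edgeR adjusted p = 0.065 and 0.061), and the Junb call also with upper quartile scaling (edgeR adjusted p = 0.062). Without the filter and with limma voom, Junb (adjusted p = 0.052 and 0.057) and Klf6 (adjusted p = 0.054 and 0.060) were not called. For Fosb, Atf3 and Dusp1, the genes called in jerboa and not in mouse at P0, the difference between the species was not called (0.96 ± 0.52, 0.85 ± 0.59 and 0.78 ± 0.33, edgeR adjusted p = 0.14, 0.25 and 0.063).

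From P0 to P3 most of these genes fell in mouse foot. There 9 of 10 were lower at P3 and Klf6 was not called, where 57.5% of all tested genes were called, 29.0% higher and 28.5% lower. In mouse forelimb 5 of 10 were lower (Fos, Fosb, Junb, Egr1 and Ier2) and none was higher, where 51.3% of tested genes were called, 26.0% higher and 25.3% lower. In jerboa foot 3 of 10 were lower (Junb, Klf4 and Dusp1), against 47.1% of tested genes called, 26.9% higher and 20.2% lower. Jerboa forelimb had 2 lower (Junb and Ier2) and 2 higher (Atf3 and Klf6), against 43.0% called, 22.5% higher and 20.6% lower. Genes whose 3 libraries at P3 did not overlap the 3 at P0 numbered 7 of 10 in mouse foot (63.4% of all tested genes), 6 in mouse forelimb (62.9%), 4 in jerboa foot (50.9%) and 5 in jerboa forelimb (53.4%). The median log2 change over the 10 genes was -1.31 in mouse foot, -0.60 in mouse forelimb, -0.44 in jerboa foot and 0.19 in jerboa forelimb, and the median over all tested genes was at most 0.05 in size. Whether the age change differed between the species was not tested. Marker lists moved with age as well. The 5 markers of myogenic progenitors summed to 1232 to 1452 CPM at P0 and 722 to 754 CPM at P3 in mouse foot (3 of 5 lower), and to 795 to 927 and 615 to 682 CPM in jerboa foot (4 of 5 lower, 1 higher). In the forelimb these sums went from 665 to 684 CPM to 345 to 391 CPM in mouse (2 of 5 lower) and from 649 to 715 CPM to 442 to 518 CPM in jerboa (4 of 5 lower). The 6 markers of fibro-adipogenic cells summed to 852 to 992 CPM at P0 and 1404 to 1692 CPM at P3 in mouse foot, with 5 of 6 higher. In mouse forelimb 4 were higher and 1 lower, in jerboa forelimb 3 were higher, and in jerboa foot 2 were lower and none higher. Of 8 endothelial markers, 8 were higher at P3 in jerboa forelimb and 6 in mouse forelimb, with 1 higher and 1 lower in each foot. Of 8 macrophage markers, 7 were higher in jerboa foot, and in mouse foot 3 were higher and 3 lower. Of 5 Schwann cell markers, 4 were higher in mouse forelimb and 2 lower in jerboa foot. Not all lists and tissues are given here. The part of the marker lists in the changes of the 10 genes was not tested.

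**Figure D3:**
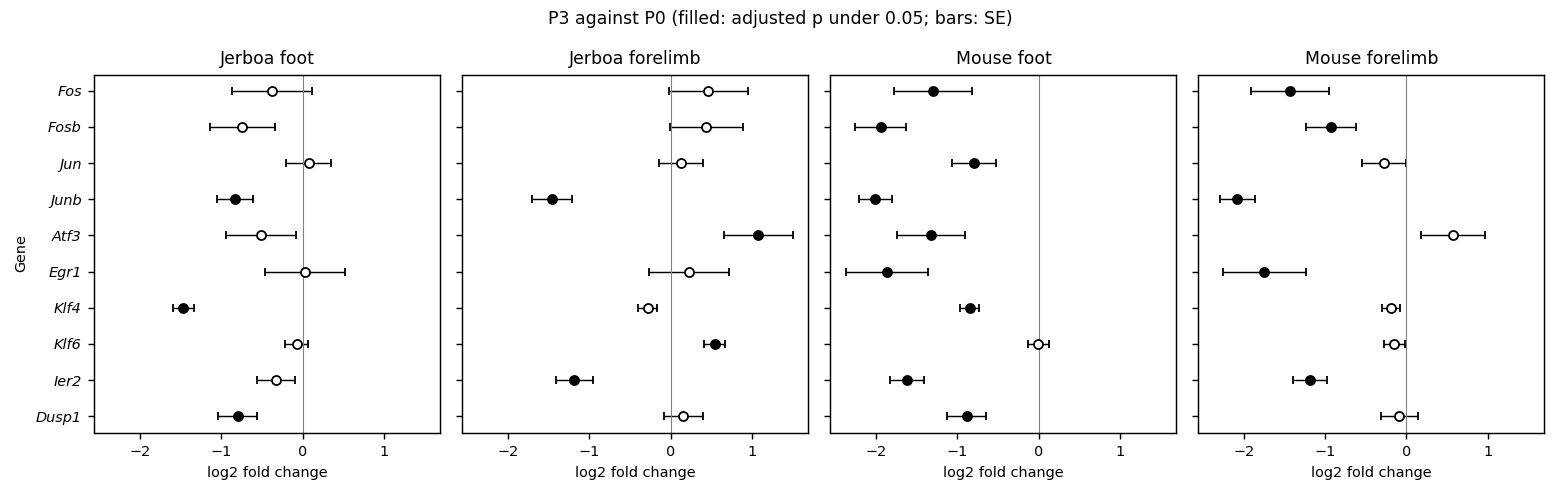
Log2 fold change of P3 over P0 (horizontal axis; bars are SE) for each gene in the 4 tissues, with filled points for an adjusted p under 0.05. In mouse foot 9 of 10 points are filled and left of 0, and Junb is filled and left of 0 in all 4 panels.

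Junb was the one gene of the 10 that was called lower at P3 in all 4 tissues, and this call was kept under all alternatives run. Klf4 and Ier2 also had changes below 0 in all 4 tissues, not all of them called. The change was -2.00 ± 0.20 in mouse foot (edgeR adjusted p = 1.8e-08), -2.08 ± 0.21 in mouse forelimb (2.4e-08), -0.83 ± 0.22 in jerboa foot (0.0032) and -1.46 ± 0.24 in jerboa forelimb (4.0e-05). In mouse foot this took the level from 26.2 to 6.54 CPM. Ier2 fell in mouse foot (-1.61 ± 0.21), in mouse forelimb (-1.18 ± 0.21) and in jerboa forelimb (-1.18 ± 0.23), with edgeR adjusted p of 1.2e-06, 6.7e-05 and 0.00025. Its jerboa foot change of -0.33 ± 0.23 was not called (edgeR adjusted p = 0.27). Klf4 fell in jerboa foot (-1.46 ± 0.13, edgeR adjusted p = 3.1e-09) and mouse foot (-0.85 ± 0.12, edgeR adjusted p = 9.7e-07) and was not called in either forelimb.

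Egr1 fell in mouse foot by 1.86 on the log2 scale (SE 0.50, edgeR adjusted p = 0.0045) and in mouse forelimb by 1.75 (SE 0.51, edgeR adjusted p = 0.0089). In jerboa its change was 0.03 ± 0.49 in foot and 0.23 ± 0.50 in forelimb, neither called. Fos and Fosb were likewise called in both mouse tissues and in neither jerboa tissue, with changes of -1.30 ± 0.48 and -1.94 ± 0.31 in mouse foot (edgeR adjusted p = 0.028 and 1.3e-05) and of -1.43 ± 0.48 and -0.92 ± 0.30 in mouse forelimb (edgeR adjusted p = 0.019 and 0.014). In mouse forelimb the Fos, Fosb and Egr1 calls were lost without the second P0 library, the highest of its group for all 3, where the changes were -1.11, -0.68 and -1.07 (edgeR adjusted p = 0.089, 0.095 and 0.085), and those of Fos and Fosb also without the second or the third P3 library (edgeR adjusted p from 0.050 to 0.080). Jun and Atf3 fell in mouse foot by 0.80 ± 0.27 and 1.32 ± 0.42 (edgeR adjusted p = 0.018 and 0.013). There the Fos call was lost without the second or the third P0 or the first or second P3 library (-1.34 to -1.04, edgeR adjusted p from 0.057 to 0.11), the Jun call without the second or the third P0 or the second P3 library (-0.73 to -0.61, edgeR adjusted p from 0.056 to 0.093), and the Atf3 call without the second P0 (-0.87) or the second or the third P3 library (edgeR adjusted p from 0.051 to 0.11). Dusp1 fell in both feet, by 0.88 in mouse and 0.80 in jerboa on the log2 scale (SE 0.24 each, edgeR adjusted p = 0.0039 and 0.011). The jerboa call was lost without the first P3 foot library (-0.65, edgeR adjusted p = 0.056). Atf3 in jerboa forelimb rose by 1.08 ± 0.42 (edgeR adjusted p = 0.048), a call lost without any 1 of 5 of the 6 libraries compared (edgeR adjusted p from 0.088 to 0.15), with upper quartile scaling or no filter (edgeR adjusted p = 0.054 and 0.057) and with limma voom (adjusted p = 0.062). Klf6 rose there by 0.54 ± 0.13 (edgeR adjusted p = 0.0021), which was kept under all alternatives run.

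The change of the limb difference with age, the difference at P3 minus that at P0, was called for 3 of 10 genes in jerboa, where 28.2% of tested genes were called (16.2% higher, and 1732 of 14448 genes lower), and for 2 of 10 in mouse, where 31.3% were called (17.1% higher and 14.2% lower). Klf4 was called in both species, at -1.18 ± 0.17 in jerboa (edgeR adjusted p = 2.2e-05) and -0.66 ± 0.16 in mouse (edgeR adjusted p = 0.0028), and both calls were kept under all alternatives run. The others were Klf6 (-0.61 ± 0.19, edgeR adjusted p = 0.021) and Dusp1 (-0.96 ± 0.34, edgeR adjusted p = 0.042) in jerboa and Atf3 in mouse (-1.89 ± 0.58, edgeR adjusted p = 0.019). All 5 called values are negative, so that for these genes the foot stood lower relative to the forelimb at P3 than at P0. Other genes had values above 0 that were not called. These were Junb (0.63 ± 0.33) and Ier2 (0.85 ± 0.33) in jerboa. In mouse they were Fos (0.13 ± 0.67), Junb (0.07 ± 0.29) and Klf6 (0.15 ± 0.18). Leaving out 1 library ended the Klf6 call for 4 of the 12 libraries compared, the Dusp1 call for 9 and the Atf3 call for 2, with edgeR adjusted p up to 0.070, 0.11 and 0.072. Limma voom did not call Klf6 or Dusp1 in jerboa (adjusted p = 0.051 for both), nor did edgeR without the filter call Dusp1 (adjusted p = 0.056).

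Libraries of the same group differed more in most of these genes than in a typical gene. The biological coefficient of variation, the relative spread between libraries of a group beyond counting noise, was 0.410 for Egr1, 0.400 for Fos and 0.348 for Atf3, at the 99.2nd, 99.2nd and 98.7th percentile of tested genes, whose median was 0.0824. Fosb (0.274), Jun (0.226), Dusp1 (0.199), Ier2 (0.179) and Junb (0.174) were at the 87.3rd percentile or above. Klf6 (0.111) and Klf4 (0.0980) were nearest the typical gene, at the 69.9th and 63.1st percentile. Set against the 1000 genes nearest in level, the within-group SD of Klf4 was at the 87.7th percentile and those of the other 9 at the 96.3rd or above. Each library held 6368 to 27215 reads of the 10 genes together.

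The deviations of a library from its group mean ran together across the 10 genes. Over the 24 libraries, Pearson's r between the deviations of 2 genes was 0.58 at the median of the 45 pairs and ranged from 0.26 (Jun with Atf3) to 0.85 (Jun with Dusp1). Of the pairs, 32 were above 0.5 and none was below 0. Pairs of other genes were not set beside them, so whether these 10 ran together more than other genes was not tested. The first mouse foot library at P0, in which all 10 genes lay below their group mean, enters every pair. The genes of a library share its RNA, its depth and its scaling, so these correlations describe the libraries and carry no p. Dusp1 followed the mean of the other 9 genes most closely (r = 0.89) and Atf3 least (r = 0.56).

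**Figure D4:**
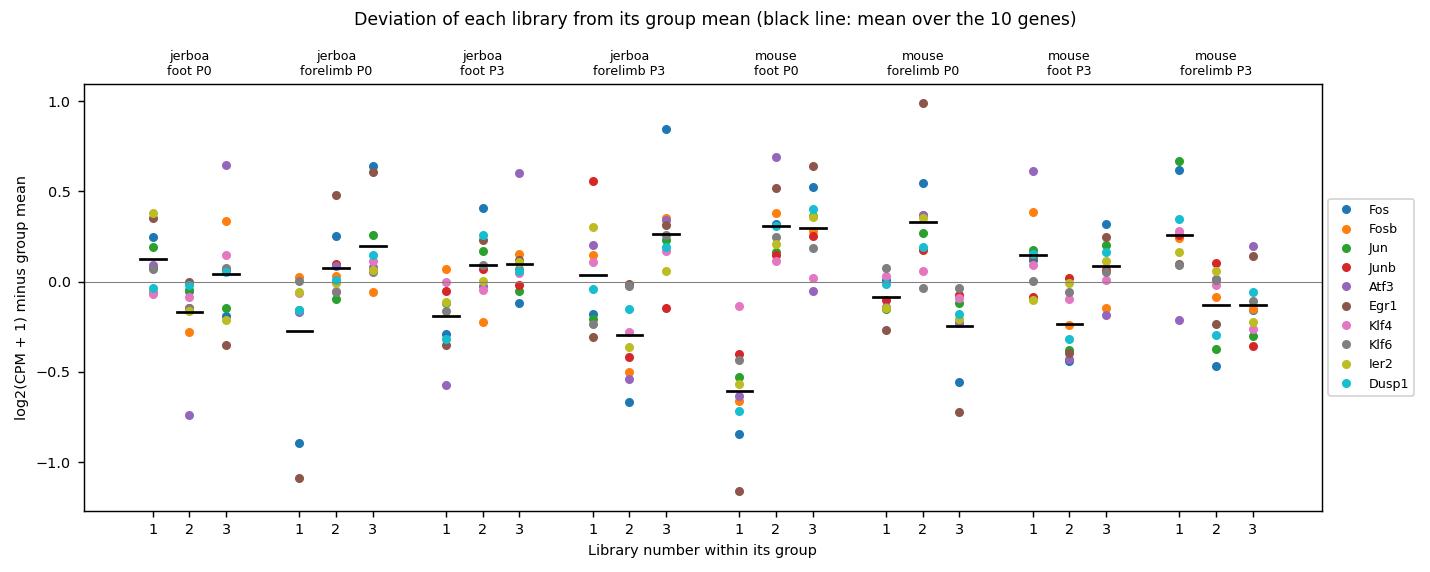
Deviation of each library from the mean of its group in log2(CPM + 1) (vertical axis) for the 10 genes (colours), by library number within its group (horizontal axis), with a black line at the mean over the genes. All 10 points of the first mouse foot library at P0 lie below 0, with a mean of -0.61.

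The first mouse foot library at P0 was the lowest of its group for 10 of 10 genes, where 42.4% of all tested genes were lowest in that library. The 10 genes summed to 352 CPM there and to 745 and 785 CPM in the other 2 libraries. Egr1 was at 92.6 CPM against 299 and 325.5, and 5 of 10 genes spanned 2-fold or more within this group, against 9.32% of tested genes. In the same library the muscle fibre markers summed to 48041 CPM against 35201 and 36630, and the heat shock genes to 2336 CPM against 1719 and 1760. Other early response genes summed to 1425 CPM there against 1877 and 1900. The part of these differences in the values of the 10 genes was not tested. In the other 7 groups, 1 to 3 of the 10 genes spanned 2-fold or more, against 6.11% to 13.6% of tested genes. In jerboa foot it was 1 of 10 at P0 and 1 of 10 at P3, against 13.6% and 9.51%. The second mouse forelimb library at P0 was highest for 9 of 10, against 32.2% of all tested genes. Lowest for 8 of 10 were the third mouse forelimb library at P0, the first jerboa foot library and the second mouse foot library at P3, and the first jerboa forelimb library at P0, against 32.7%, 31.0%, 31.3% and 39.1% of all tested genes. Highest for 8 of 10 at P3 were the third jerboa forelimb library and the first mouse forelimb library, against 31.1% and 35.6%. The first jerboa forelimb library at P0 had Fos at 10.3 CPM against 24.1 and 31.8 and Egr1 at 34.5 CPM against 104.5 and 114.

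The genes most like the mean of the 10 were found across the 24 libraries among 14438 other tested genes, as Pearson's r of log2(CPM + 1). With the mean of each species subtracted, Zfp36, which encodes an RNA-binding protein, was first (r = 0.90), and the 8 nearest also held Spry1 (0.88), Dock6 (0.85), Gabbr1 (0.85), Mroh7 (0.85), Zswim8 (0.84) and Gli2 (0.84). With the mean of each group subtracted, so that only differences between libraries of a group remained, the order was Med15 (0.87), Zfp36 (0.84), Ccn1 (0.81), Ccn2 (0.81), Egr2 (0.80), Tbc1d10a (0.80), Klf2 (0.80) and Mier2 (0.79). Zfp36 was in both lists of 8. At P0 its jerboa level was 10.3 ± 2.21 CPM in foot and 6.71 ± 0.721 CPM in forelimb (0.61 ± 0.18, edgeR adjusted p = 0.0057), and its mouse level 27.8 ± 6.68 and 22.6 ± 1.49 CPM in mouse (0.30 ± 0.15, edgeR adjusted p = 0.097; SD, n = 3).

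Of 40 other early response genes, 39 were tested (Fosl1 was not). In foot against forelimb 18 were higher and 6 lower in jerboa at P0, 9 and 15 in mouse at P0, 12 and 8 in jerboa at P3, and 6 and 11 in mouse at P3. Over all tested genes the shares higher and lower were 31.1% and 34.8%, 29.7% and 29.3%, 35.9% and 32.0%, and 27.2% and 25.2% in that order. The median log2 difference of the early response genes was 0.46, -0.13, 0.22 and -0.18. In jerboa at P0 the smallest p belonged to Nr4a2, an orphan nuclear receptor (1.35 ± 0.17), Plk3, a polo-like kinase (0.99 ± 0.12), Nfkbia, the NF-κB inhibitor (1.01 ± 0.12), and Ccn2, a matrix-associated signalling protein (1.49 ± 0.19). In mouse at P0 they belonged to Mcl1 (-0.51 ± 0.06), Gadd45a (-1.15 ± 0.16), Cebpb (-1.67 ± 0.23) and Nfkbiz (-0.97 ± 0.14), all lower in foot. The test between species took the foot-forelimb difference of jerboa minus that of mouse. This value was called above 0 for 15 of 39 and below 0 for 2 (Arc and Rhob) at P0, and for 13 and 4 at P3. It does not compare the levels of the species. The smallest p at P0 belonged to Nfkbiz (1.90 ± 0.20), Per1 (1.79 ± 0.26), Ccn2 (1.67 ± 0.26) and Nfkbia (1.01 ± 0.17). Over all tested genes the shares called higher and lower in this test were 21.6% and 26.9% at P0, and 24.1% and 24.9% at P3. From P0 to P3, 23 of 39 fell and 5 rose in mouse foot, 19 fell and 3 rose in mouse forelimb, 15 fell and 2 rose in jerboa foot, and 15 fell and 6 rose in jerboa forelimb. The shares of all tested genes that fell and rose were 28.5% and 29.0%, 25.3% and 26.0%, 20.2% and 26.9%, and 20.6% and 22.5% in that order.

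Of the 22 kinases and transcription factors that act upstream, 21 were tested, and more were lower than higher in foot in each comparison: 10 against 5 in jerboa and 12 against 4 in mouse at P0, and 14 against 4 and 12 against 2 at P3. Of all tested genes 34.8%, 29.3%, 32.0% and 25.2% were lower in these comparisons. The median log2 difference of the upstream genes was -0.26, -0.17, -0.42 and -0.26 in the same order. Mrtfb, a coactivator of serum response factor, was at -1.01 ± 0.07 in jerboa at P0, -1.79 ± 0.06 in jerboa at P3 and -0.62 ± 0.06 in mouse at P3. Rps6ka3, the kinase RSK2, was at -1.50 ± 0.10 in jerboa and -0.99 ± 0.09 in mouse at P0, and Elk4, a partner of serum response factor, at -1.87 ± 0.10 in jerboa and -1.29 ± 0.09 in mouse at P3. Mapk14, which encodes p38 alpha, was at -1.01 ± 0.08 in jerboa and -0.47 ± 0.07 in mouse at P0. Among 15 feedback inhibitors of these kinases, at P0 10 were higher in foot and 4 lower in jerboa and 6 and 3 in mouse, then 6 and 7 in jerboa and 4 and 5 in mouse at P3, with medians of 0.46, 0.18, -0.15 and -0.07. Beside these counts, 31.1% of all tested genes were higher and 34.8% lower in jerboa at P0, 29.7% and 29.3% in mouse at P0, 35.9% and 32.0% in jerboa at P3, and 27.2% and 25.2% in mouse at P3. Spred1, which restrains RAS, was lower in foot in jerboa (-1.15 ± 0.08) and mouse (-0.79 ± 0.07) at P0, and the phosphatase gene Dusp14 was higher in jerboa foot (1.24 ± 0.11).

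Stress programmes share stimuli with the immediate early response. Their counts stand beside 31.1% of all tested genes higher and 34.8% lower in foot in jerboa at P0, 29.7% and 29.3% in mouse at P0, 35.9% and 32.0% in jerboa at P3, and 27.2% and 25.2% in mouse at P3. Of 14 genes of the integrated stress response, in which Atf3 is a known target of ATF4, foot was higher for 5 and lower for 3 in jerboa and for 7 and 4 in mouse at P0, and for 6 and 1 in jerboa and 5 and 5 in mouse at P3, with medians of 0.32, 0.22, 0.34 and 0.02. Atf4 itself was higher in foot in jerboa (1.03 ± 0.07) and mouse (0.54 ± 0.07) at P0 and in jerboa at P3 (0.73 ± 0.07). Ppp1r15a, which directs dephosphorylation of eIF2 alpha, was higher in jerboa (1.11 ± 0.09) and mouse (0.79 ± 0.09) at P0. Of 12 tested heat shock genes, foot was higher for 3 and lower for 5 in jerboa and for 3 and 1 in mouse at P0, and for 8 and 2 in jerboa and 3 and 3 in mouse at P3, with medians of -0.25, 0.07, 0.27 and -0.09. The inducible chaperone gene Hspa1b was higher in jerboa foot at P0 (1.45 ± 0.27), where the mitochondrial chaperonin genes Hspd1 (-1.03 ± 0.09) and Hspe1 (-0.72 ± 0.08) were lower. Reads of Hspa1b may be shared with its near-identical neighbour Hspa1a, so its value is uncertain. Each SE and call in these lists is from the same edgeR test over all genes, with adjusted p under 0.05 for every gene given as higher or lower.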

How the data were processed

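Total RNA of 24 samples was sequenced, and the authors deposited raw read counts per feature, whole numbers with no normalization, with 3 columns per sample that by their values hold both strands together and then each strand alone. STAR is named in the submitters' processing notes, with no version. Genome builds, annotation and the settings for trimming were not given in the sources used here. Features carry mouse transcript identifiers in both species, so jerboa levels depend on gene models not seen here. The last column, with 98.4% to 99.6% of stranded reads, was the count. Symbols, positions and UTR sequences came from GENCODE M21 (GRCm38). Reads of the 10 genes on the opposite strand were at most 0.733% of theirs. Counts were fitted in R 4.3.3 with edgeR 4.0.16 (TMM, filterByExpr, quasi-likelihood F test, 1 coefficient per group, 16 residual degrees of freedom, common biological coefficient of variation 0.0842), with Benjamini-Hochberg adjustment over all 14448 genes of each of 12 comparisons and a threshold of 0.05. Steps were tested on simulated data. Correlations used log2(CPM + 1). Named genes were the 10 members, up to 4 list members with the smallest p per limb or species comparison, and the 8 genes most alike by each measure, of which 1 is not reported here. Arc and Rhob, and Zfp36 with its levels, were added after their values were seen. The members and lists were chosen with earlier results of these data known. Alternatives were DESeq2 size factors, upper-quartile scaling, a stricter filter and none, DESeq2 1.42.0, limma 3.58.1 voom, only the libraries compared, a replicate block, reads of either strand, and each library left out. The labels do not say whether equal replicate numbers pair libraries, and the main test did not treat them as pairs. Over 12 pairs of same-numbered foot and forelimb libraries, r of their deviations ran from -0.11 to 0.19. No 2 libraries agreed within sampling noise. Intervals were not computed for counts.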

Additional observations from a re-analysis of the deposited data

Results flagged for a closer look

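For 9 results the difference between 2 tissues, species or ages was itself past the threshold (edgeR quasi-likelihood test, adjusted over all genes), which marks them for a closer look. Between species, as jerboa minus mouse foot-forelimb difference, these were Klf4 (0.61) and Ier2 (-0.80) at P0 and Junb (0.81) and Klf6 (-0.45) at P3. Between ages, as the foot-forelimb difference at P3 minus that at P0, they were Klf4 (-1.18), Klf6 (-0.61) and Dusp1 (-0.96) in jerboa and Atf3 (-1.89) and Klf4 (-0.66) in mouse. Klf4 was called in 3 of these 9 tests, and those 3 calls were kept under all alternatives run. All 5 age differences also compare libraries whose reads the labels describe differently. Their part in these values was not tested.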

How the results depend on the processing

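Of 120 results for single genes, 46 were called, and 28 of these were called under all alternatives; none of the 46 changed direction, whereas 24 results that were not called did under at least 1. The number of genes called in a comparison stayed within 0.833 to 1.19 times its value, and the median of all genes moved by at most 0.056 on the log2 scale. With only the libraries compared, the limb-by-age test in jerboa called 1607 genes higher and 1889 lower (46.0% of its calls higher), against 2339 and 1732 (57.5% higher). Depth limits Fosb most among the 10 genes, at under 1 CPM in jerboa forelimb at P0.

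The count of the 10 genes called for the difference between species at P3 was 2, and became 1 with upper quartile scaling or only the libraries compared, 0 with no filter in edgeR (2 at an unadjusted p under 0.05) and 0 with limma voom (3 at an unadjusted p under 0.05). At P0 it was 2, and 1 with only the libraries compared. The count for limb by age in jerboa was 3, 5 with DESeq2 and 1 with limma voom. That for jerboa foot against forelimb at P3 was 3, and 5 with only the libraries compared. Leaving out each library in turn gave 1 to 2 and 0 to 2 for the difference between species at P0 and P3, 1 to 5 for limb by age in jerboa and in mouse (3 and 2 with all libraries), and 2 to 7 for mouse forelimb at P3 against P0 (5 with all libraries). Where that count was 0, from 0 to 3 genes had an unadjusted p under 0.05 in edgeR. The cause was not tested.

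Values near 0 changed sign without being called. Egr1 in jerboa foot between ages was 0.03, and -0.0075 with DESeq2 size factors, -0.0064 with DESeq2 and -0.018 with only the libraries compared. Klf6 in mouse foot between ages was -0.0031, and 0.012 with DESeq2 size factors, 0.0082 with no filter, 0.0019 with reads of either strand, 0.014 with DESeq2 and 0.022 with limma voom. Ier2 between the mouse limbs at P3 was 0.015, and -0.0019 with only the libraries compared.

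Leaving out 1 library gave ranges across 0 for 24 such results. Between the limbs these were Fos (-0.24 to 0.34), Jun (-0.11 to 0.30), Atf3 (-0.19 to 0.53) and Dusp1 (-0.13 to 0.33) in mouse at P0, Fos (-0.065 to 0.55) and Ier2 (-0.10 to 0.11) in mouse at P3, and Fos (-0.59 to 0.26) and Dusp1 (-0.27 to 0.029) in jerboa at P3. Between ages they were Jun (-0.016 to 0.18), Egr1 (-0.12 to 0.23) and Klf6 (-0.14 to 0.011) in jerboa foot, Fos (-0.094 to 0.83) and Egr1 (-0.14 to 0.51) in jerboa forelimb, Klf6 (-0.19 to 0.12) in mouse foot and Dusp1 (-0.29 to 0.052) in mouse forelimb. For limb by age they were Jun (-0.19 to 0.075) and Egr1 (-0.48 to 0.18) in jerboa and Fos (-0.18 to 0.53), Junb (-0.13 to 0.24), Egr1 (-0.79 to 0.19) and Klf6 (-0.037 to 0.27) in mouse. For the difference between species at P3 they were Fos (-0.85 to 0.11), Jun (-0.22 to 0.39) and Klf4 (-0.067 to 0.21).

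Replicate numbers were shared between groups, and the labels do not say whether they pair libraries. Only 1 of 12 same-numbered pairs had a correlation over 0.1, and 5 correlated best with their own number. The r ran from 0.0016 to 0.19 in mouse and from -0.11 to 0.091 in jerboa. With 3 libraries per group, these values cannot decide whether equal numbers mark a pair. With the replicate block the count for the difference between species at P0 was 4 in place of 2, the calls of Egr1 between the mouse limbs at P0 (adjusted p = 0.068) and of Atf3 in jerboa forelimb between ages (adjusted p = 0.093) were lost in edgeR, and 3 uncalled values changed sign: Fos (-0.024) and Dusp1 (-0.0056) between the mouse limbs at P0 and Klf6 (0.024) in mouse foot between ages.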
